A study of Mus musculus with 8 samples.

Results

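The genes described here are 7 named members of the plasma-cell programme: Sdc1, Jchain, Prdm1, Xbp1, Irf4, Cd38 and Bcl6. They were chosen by name, and for each the probe set with 1 gene symbol and the highest mean signal was read in all 8 samples. Of the 7, 6 had such a probe set, among 19937 genes measured in the same way. No probe set was named Cd38 in the annotation used, so Cd38 is not analysed here. Each measured member had 1 probe set, so no second probe set was at hand to compare.

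The samples were B-lymphoid cells of mice whose strain is given as SW129/C57BL/6J, 4 labelled c-jun knock out and 4 labelled wild type, each on 1 Affymetrix MoGene 1.0 ST array. c-jun is the AP-1 transcription factor gene Jun, and the study concerns its part in lymphoid leukaemia driven by the BCR-ABL fusion kinase. The labels give no age, treatment, transforming agent or deleted part of the gene. They do not say whether samples came from separate animals or cultures, so the spread that p-values rest on may be technical. Sample titles fall into an RO scheme (replicates 1 and 2 of each genotype) and a D/F scheme (replicates 3 and 4), which the labels do not call batches. In the D/F scheme both D titles are knockout and both F titles wild type, so title letter and genotype cannot be told apart there. Values are log2 signals with array medians from 6.93 to 7.42.

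A B cell that becomes a plasma cell stops dividing and turns its cytoplasm into a factory for antibody. IRF4 at high level induces BLIMP-1, the product of Prdm1, which silences B-cell identity genes such as Pax5. XBP1 then expands the endoplasmic reticulum and the secretory machinery. BCL6 holds germinal-centre B cells in the opposite state by repressing Prdm1, and BLIMP-1 in turn represses Bcl6. Sdc1 (syndecan-1, CD138) and Jchain, the peptide that joins antibody units into polymers, are products of the finished cell. Several members are not restricted to it: syndecan-1 is also found on precursor B cells and on epithelia, and IRF4 acts in pre-B cells.

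The targeted gene and the markers of cell type were checked first. Jun averaged 6.86 ± 0.27 (SD, n = 4) where the label was knockout, against 9.25 ± 0.87 (SD, n = 4) for wild type, with no overlap of the groups. Of 12 precursor and pan-B markers listed, 11 were measured. Cd79a, part of the B-cell receptor, lay between 13.02 and 13.30, and the surrogate light chain gene Igll1 between 13.82 and 14.21. Of markers of other cells, 8 of 11 myeloid and 6 of 9 T and NK markers lay below the array median on every array. So did 1 of 3 erythroid, 3 of 7 stromal and endothelial, 2 of 5 epithelial and 2 of 4 plasmacytoid dendritic markers. The share of all genes that did so was not counted. Among the remaining myeloid, T and NK markers, Lyz2 ran from 7.44 to 10.64. Klrb1c reached 10.54 in wild type replicate 3 and 8.93 in knockout replicate 4 against 5.73 to 6.78 elsewhere.

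Because the samples differ in an AP-1 subunit, the promoters of the members were read for letters that AP-1 and XBP1 are known to bind. The sequences are the 250 bases before a RefSeq gene start in GRCm38.p6, on the strand of the gene. Capitals mark matches on either strand to the AP-1 motif TGANTCA, the related CRE motif TGACGTCA or the half-site CCACG of the endoplasmic reticulum stress element. They are shown for Prdm1, the only member window with an AP-1 match, for Sdc1 and Jchain, which had the largest average differences between genotypes, and for Xbp1, which varied most between samples. The windows lie at chr10:44458749-44458998 (minus strand) for Prdm1, chr12:8771146-8771395 (plus strand) for Sdc1, chr5:88527898-88528147 (minus strand) for Jchain and chr11:5520391-5520640 (plus strand) for Xbp1.
Prdm1: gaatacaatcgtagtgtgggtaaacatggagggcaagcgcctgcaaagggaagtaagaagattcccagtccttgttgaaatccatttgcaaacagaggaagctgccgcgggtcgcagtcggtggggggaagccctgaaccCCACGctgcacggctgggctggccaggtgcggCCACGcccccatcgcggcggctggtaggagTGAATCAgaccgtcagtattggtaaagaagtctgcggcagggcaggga
Sdc1: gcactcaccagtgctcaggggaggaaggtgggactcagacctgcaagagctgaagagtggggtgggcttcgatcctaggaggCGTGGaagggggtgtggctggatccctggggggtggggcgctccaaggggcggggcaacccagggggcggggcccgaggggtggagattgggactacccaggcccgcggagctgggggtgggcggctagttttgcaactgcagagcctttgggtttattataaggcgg
Jchain: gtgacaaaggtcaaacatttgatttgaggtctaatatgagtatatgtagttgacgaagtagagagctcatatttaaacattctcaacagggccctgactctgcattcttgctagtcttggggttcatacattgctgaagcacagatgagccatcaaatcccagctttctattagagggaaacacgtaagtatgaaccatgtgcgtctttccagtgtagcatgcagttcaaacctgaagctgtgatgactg
Xbp1: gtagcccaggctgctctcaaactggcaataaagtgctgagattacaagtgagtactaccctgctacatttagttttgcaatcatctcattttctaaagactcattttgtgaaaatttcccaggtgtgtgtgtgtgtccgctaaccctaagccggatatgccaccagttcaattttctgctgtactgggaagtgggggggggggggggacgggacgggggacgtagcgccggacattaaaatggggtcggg
The AP-1 match of Prdm1 lies 48 to 42 bases before its start, after half-sites that begin 110 and 78 bases before it and do not overlap it. Sdc1 holds 1 half-site match, and the Jchain and Xbp1 windows hold no match to these 3 motifs. Of the other windows, those of Irf4 and Cd38 and the first of 2 for Bcl6 hold 1 half-site match each. Across all 32851 windows of this length 6.75% hold the AP-1 motif, 1.55% the CRE motif and 28.3% the half-site, and a match in letters is not evidence of binding.

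The main question was whether the plasma-cell genes differed between genotypes. None of the 6 measured members passed the limma test after Benjamini-Hochberg adjustment over all genes, where 0.00502% of genes were called. At an unadjusted limma p under 0.05 there was 1 member, Sdc1, against 2.25% of all genes. Which members reached it changed with the setting: none did after quantile normalization or with arrays centred on their medians, and Jchain, Xbp1 and Irf4 did among D/F samples alone, where 3.8% of all genes did. For 5 of the 6 the average was lower in knockout samples, which was also so for 72.0% of all genes. The groups overlapped for all 6 members, while they did not for 1.29% of genes. In bulk samples such as these, fewer cells of a type and less RNA per cell cannot be told apart.

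**Figure D1:**
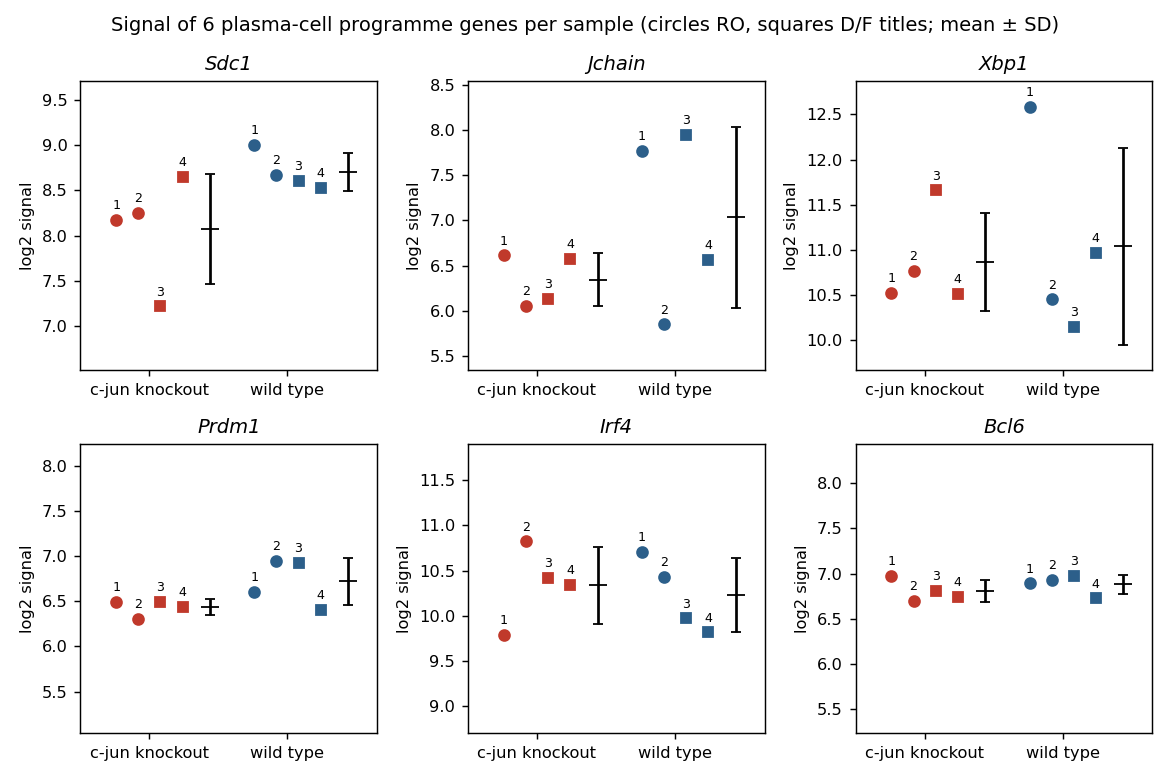
Log2 signal (y axis) of each measured member in the 4 knockout and 4 wild-type samples (x axis; point labels are replicate numbers, circles RO and squares D/F titles), with mean ± SD as black bars; all panels span the same number of log2 units. The groups overlap in every panel, and wild type replicate 1 is highest for Sdc1 (9.004) and Xbp1 (12.59).

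Sdc1, the surface proteoglycan by which plasma cells are sorted, gave log2 signals of 8.17, 8.25, 7.22 and 8.65 in the knockout samples, in replicate order, against 9.004, 8.68, 8.61 and 8.53 in the wild-type samples. Of the knockout samples 3 lay below every wild-type sample, and replicate 4 lay among them. The means were 8.07 ± 0.61 (SD, n = 4) and 8.70 ± 0.21 (SD, n = 4), a log2 difference of -0.63 (SE 0.26; 95% interval -1.20 to -0.062). The unadjusted limma p was 0.0327 and the adjusted p was 0.878, and a 2-sided exact permutation test gave p = 0.0857, unadjusted for the 6 members tested. The unadjusted limma p was 0.0582 after quantile normalization and 0.118 with arrays centred (limma adjusted p = 0.971 and 0.950), where the difference was -0.48. Within each naming scheme the difference was -0.63 as deposited, but with arrays centred it was -0.31 among RO and -0.65 among D/F samples. The median of all genes was -0.25 among RO samples. It rested in part on knockout replicate 3, without which it was -0.34, whereas without knockout replicate 4 it was -0.92. Sdc1 is also an epithelial gene, and the summed linear signal of 5 epithelial markers ran from 580 to 797 in knockout and from 625 to 960 in wild-type samples. Epcam and Krt5 lay below the array median on every array. The part of these markers in the Sdc1 values was not tested.

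Jchain, whose product links antibody units, gave 6.61, 6.06, 6.13 and 6.58 in the knockout samples, in replicate order, against 7.77, 5.85, 7.95 and 6.57 in the wild-type samples. Wild type replicates 1 and 3 stood above all other samples, while wild type replicate 2 was the lowest of the 8. These 2 high samples came from different naming schemes and were the only ones above their array median. The genotype means were 6.34 ± 0.29 (SD, n = 4) for knockout and 7.03 ± 1.001 (SD, n = 4) for wild type, a log2 difference of -0.69 (SE 0.40; limma adjusted p = 0.878; exact permutation p = 0.343). Leaving out 1 wild-type sample changed it to -0.35 (replicate 1), -0.37 (replicate 3) or -1.12 (replicate 2). Because most Jchain signals lie at the dim end of the scale, the size of a difference is uncertain.

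Xbp1, which encodes the transcription factor of the secretory programme, varied most among the members. In replicate order the knockout samples read 10.53, 10.77, 11.66 and 10.52 and the wild-type samples 12.59, 10.45, 10.15 and 10.97. The highest sample was 5.42 times the lowest on the linear scale, a log2 range of 2.44, which was wider than that of 98.05% of genes. Wild type replicate 1 lay 0.93 above the next sample, knockout replicate 3. The genotype means were 10.87 ± 0.54 (SD, n = 4) and 11.04 ± 1.09 (SD, n = 4), with a log2 difference of -0.17 (SE 0.45; limma adjusted p = 0.916; exact permutation p = 0.800). The sign turned without wild type replicate 1, to 0.40. Among RO samples it was -0.87 and among D/F samples 0.53, and the interaction of genotype and naming scheme did not pass (1.40, SE 0.82; limma adjusted p = 0.716). The interaction was called for none of the 6 members and for 0.0301% of all genes. The array measures total Xbp1 transcript and does not tell the spliced, active form from the unspliced one.

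Prdm1, the gene of the master regulator BLIMP-1, gave a dim signal in every sample. In replicate order the knockout samples read 6.49, 6.30, 6.49 and 6.44 and the wild-type samples 6.60, 6.94, 6.93 and 6.40. Each value lay below the median of its own array. The log2 difference was -0.29 (SE 0.18; limma adjusted p = 0.878; exact permutation p = 0.114). With each array centred on its median it was -0.13. The whole range over 8 samples was 0.64, and at such dim signals a rise may be understated. As deposited, wild type replicates 2 and 3 were the highest, 0.45 and 0.43 above the median of the samples, and 0.38 and 0.12 with arrays centred.

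Irf4, which acts in pre-B cells at moderate level and drives plasma-cell fate at high level, was above the array median in all samples. In replicate order the knockout samples read 9.78, 10.82, 10.41 and 10.34 and the wild-type samples 10.71, 10.43, 9.97 and 9.81. Samples of both genotypes were found at both ends of this range. The log2 difference was 0.11 (SE 0.23; 95% interval -0.40 to 0.61; limma adjusted p = 0.905; exact permutation p = 0.771). Among RO samples it was -0.27, near the median of all genes there (-0.25), and among D/F samples 0.48. With arrays centred these were 0.058 and 0.47, of the same sign. The interaction did not pass (0.75, SE 0.42; limma adjusted p = 0.716). Without knockout replicate 1 the difference was 0.39, and without knockout replicate 2 it was -0.024.

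Bcl6, the repressor that opposes Prdm1, was the least variable member. Its signals ran from 6.70 to 6.97 in knockout and from 6.73 to 6.97 in wild-type samples, all below the median of their own array. The log2 difference was -0.076 (SE 0.16; 95% interval -0.43 to 0.28; limma adjusted p = 0.905; exact permutation p = 0.400), and with arrays centred on their medians it was 0.077. The small differences of the dim genes Bcl6 and Prdm1 thus depended on the scaling. Centring widened the SD of Bcl6 over the 8 samples from 0.11 to 0.16 and narrowed that of Prdm1 from 0.24 to 0.19. For naming scheme, none of the 6 was called between RO and D/F samples either (limma adjusted p = 0.9999 for each), where 0.0201% of genes were called. The log2 differences, D/F minus RO, ran from -0.30 (SE 0.23) for Irf4 to 0.23 (SE 0.40) for Jchain.

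**Figure D2:**
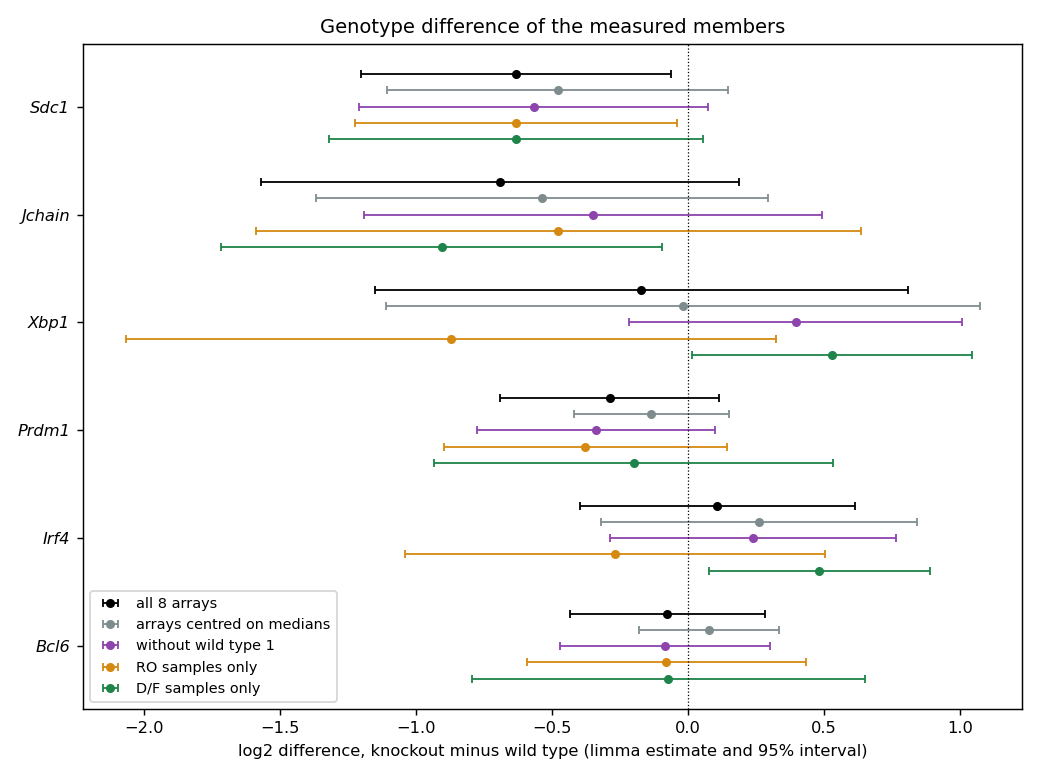
Log2 difference, knockout minus wild type, of each measured member (x axis; points are limma estimates, bars their 95% intervals) with all 8 arrays, with arrays centred on their medians, without wild type replicate 1, and within each naming scheme. The estimates of Sdc1, Jchain and Prdm1 stay below 0 in all 5, though many of their intervals cross 0. That of Xbp1 runs from -0.87 in RO samples to 0.53 in D/F samples. Over all genes the median difference ran from -0.25 in RO samples to 0.040 with arrays centred.

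The second question was whether any single sample leaned towards terminal differentiation. A lean would show as several of Sdc1, Jchain, Prdm1, Xbp1 and Irf4 high in 1 sample, with Bcl6 and B-cell identity genes low. Each sample was set against the median of all 8, with arrays first centred on their medians because these differ. No test was made of single samples.

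Judged by the measured members, wild type replicate 1 came nearest to such a pattern, and only in part. With arrays centred it was highest for Sdc1 and Xbp1 and second for Jchain and Irf4, but lowest for Prdm1. Its deviations from the median were 0.22 for Sdc1, 0.89 for Jchain, 1.49 for Xbp1, 0.14 for Irf4 and -0.20 for Prdm1. Bcl6 was also lowest there, by -0.19. As deposited, all 5 plasma-cell genes lay above the median in this sample, Prdm1 by 0.11, but so did Bcl6, by 0.041. In each of the 3 scalings tried, this sample was among the 2 highest for 4 of the 5 genes. A list of 13 other plasma-cell identity genes went the other way with arrays centred. Their median deviation was -0.23 in this sample, the lowest of any sample, and 2 of the 13 lay above the median. After quantile normalization 3 of the 13 did (median deviation -0.18), and as deposited 7 did (0.013). With arrays centred, wild type replicate 1 was the lowest sample for 5 of the 13. It was also lowest for 23.2% of all genes and for 36.5% of the brighter 9969, those at or above the median gene in mean signal. Low values there were thus not confined to this list.

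Wild type replicate 3 showed a different combination. It had the highest Jchain (1.07 above the median) but the lowest Xbp1 (-0.95) and Irf4 (-0.60). Wild type replicate 2 had the highest Prdm1 (0.38) and the lowest Jchain (-0.79). Knockout replicate 3 had the second highest Xbp1 (0.76) together with the lowest Sdc1 (-1.38), and knockout replicate 2 had the highest Irf4 (0.73) with Jchain at -0.34. High values of the members were thus spread over different samples rather than gathered in 1, apart from wild type replicate 1. With arrays centred, between 1 and 4 of the 5 genes lay above the median in every sample, 4 of them in wild type replicates 1 and 4. In wild type replicate 4, 11 of the 13 plasma-cell identity genes and 22 of 26 XBP1 target genes also lay above it. Bcl6 (0.074) and 17 of 23 B-cell identity genes did so too, which is not part of a lean. As deposited, 1 of the 5 members, 6 of the 13 and 18 of the 26 lay above the median in that sample.

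**Figure D3:**
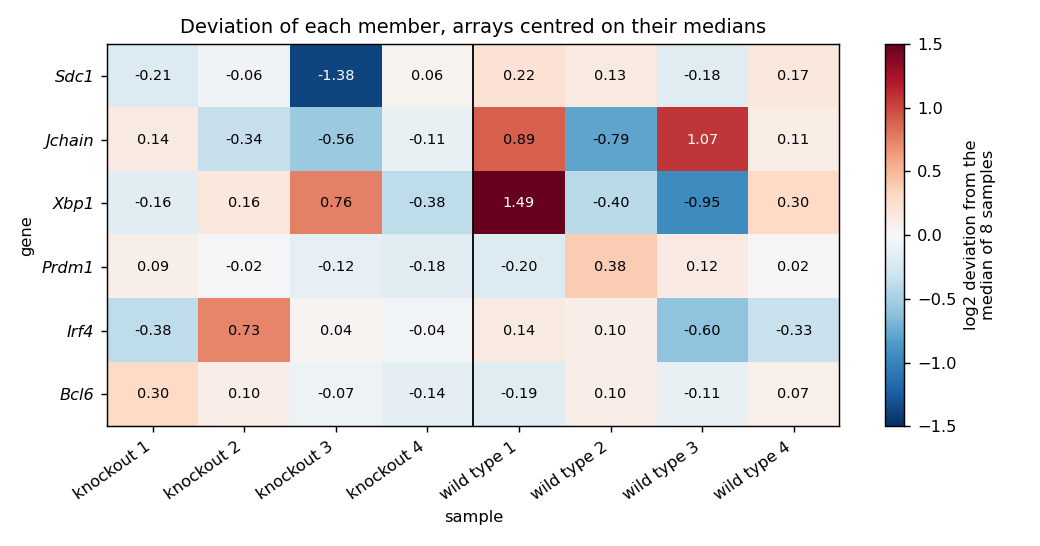
Log2 deviation of each measured member (rows) from the median of the 8 samples (columns, knockout left and wild type right), with arrays centred on their medians; red is above and blue below. Wild type replicate 1 is high for Xbp1 (1.49) and Jchain (0.89) but not Prdm1 (-0.20), and knockout replicate 3 pairs high Xbp1 (0.76) with low Sdc1 (-1.38).

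The genes that XBP1 is known to drive were then read beside Xbp1, from a list of 26 chaperones and secretory-pathway genes. As deposited, wild type replicate 1 had Xbp1 1.94 above the median of the samples, while its 26 target genes had a median deviation of -0.18, the lowest of any sample. It was the lowest sample for 12 of the 26. That sample was also lowest for 35.2% of the 1815 genes at least as bright as the median target, so low values of bright genes there were not confined to the list. With arrays centred it was lowest for 20 of the 26, against 46.6% of those genes. Of 3 targets picked after their values were seen, the chaperone genes Hspa5 (11.80 against 12.30 to 12.99 in the other samples) and Hsp90b1 (11.35 against 11.89 to 12.67) and the degradation gene Derl2 (8.69 against 9.81 to 10.05) were lowest in wild type replicate 1. Fkbp11, a prolyl isomerase gene abundant in plasma cells, went the other way, with 8.02 there and 7.80 in wild type replicate 3 against 6.72 to 7.35 in the rest. As deposited 3 of the 26 targets were highest in wild type replicate 1: Fkbp11, Sec61b (10.22) and Derl3 (8.03).

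**Figure D4:**
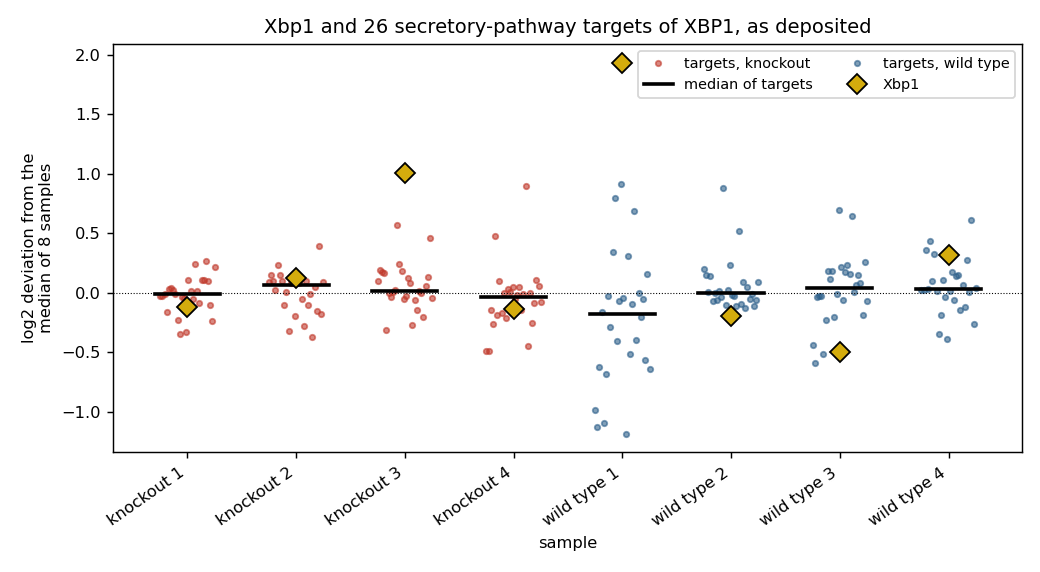
Log2 deviation from the median of the 8 samples (y axis), as deposited, of Xbp1 (diamonds) and of 26 XBP1 secretory targets (dots, with black bars for their median) in each sample (x axis). In wild type replicate 1 Xbp1 is 1.94 above the median while the median of the targets is -0.18.

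Between genotypes, 13 of the 26 XBP1 targets were higher and 13 lower on average in knockout samples and none passed the test (median log2 difference -0.0038). Over all genes the median was -0.11 and 28.0% were higher, while over the brighter 9969 genes it was -0.028. Of the targets with the smallest p, Fkbp11 had a log2 difference of -0.50 (SE 0.26), the coat protein gene Sec24d -0.50 (SE 0.28), the translocon-associated Ssr3 0.23 (SE 0.14) and the chaperone gene Dnajb11 0.27 (SE 0.19). All 4 had a limma adjusted p of 0.878. In this list and in those of plasma-cell identity, antibody, B-cell identity and germinal-centre genes, 0 genes had an unadjusted limma p under 0.05.

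Other genes of plasma-cell identity gave no called member either, with 6 of 13 measured genes higher and 7 lower in knockout samples (median log2 difference -0.012). Over all genes 28.0% were higher, with a median of -0.11, as were 44.0% of the brighter 9969. The costimulatory receptor gene Cd28 had a log2 difference of -0.44 (SE 0.22), the elongation-factor partner Eaf2 -0.21 (SE 0.18), the receptor gene Tnfrsf13b -0.19 (SE 0.16) and Glcci1 0.28 (SE 0.25), each with a limma adjusted p of 0.878. Tnfrsf17, the gene of the survival receptor BCMA, lay below the array median on every array, as did Cd27, Cd28 and Eaf2. Slamf7, a surface receptor of plasma cells, ran from 5.98 in wild type replicate 4 to 10.01 in wild type replicate 3, the sample with the highest Jchain. Mzb1, a chaperone gene of antibody-secreting and other B cells, ran from 12.40 in wild type replicate 1 to 13.30 in knockout replicate 1.

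Of 12 antibody constant-region genes listed, 3 were measured. Knockout replicate 1 was the highest sample for all of them, at 9.97 for Ighm, 9.03 for Ighg3 and 10.40 for Igha. The other 7 samples lay between 6.42 and 7.60 for Ighm, 6.14 and 8.64 for Ighg3, and 8.03 and 9.44 for Igha. In that sample Xbp1 (10.53), Sdc1 (8.17) and Irf4 (9.78) were not high, while Jchain and Prdm1 had rank 3 with arrays centred. The 13 plasma-cell identity genes had a median deviation of 0.29 there with arrays centred, the highest of any sample. As deposited it was 0.11, below wild type replicates 2 and 3 (each 0.13). Genotype differences were 0.41 (SE 0.58) for Ighm, 0.46 (SE 0.57) for Ighg3 and -0.13 (SE 0.35) for Igha, and none passed. Without knockout replicate 1 all 3 were lower in knockout samples (median log2 difference -0.39), and with the probe sets of a gene averaged all 3 were higher (0.098).

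Of 23 measured genes that a plasma cell shuts off, 4 that mark mature B cells (Ciita, Ms4a1, Fcer2a and Cxcr5) lay below the array median on every array. Pax5, the B-cell identity factor that BLIMP-1 represses, lay between 11.04 and 11.76, and its partner Ebf1 between 11.97 and 12.66. Wild type replicate 1 had the lowest Ebf1 signal, and wild type replicate 3 the lowest Pax5. Over all genes 72.0% were lower in knockout samples (median log2 difference -0.11). Of the 23 genes 7 were higher and 16 lower (median log2 difference -0.14), near that share, and none was called. Those of smallest p were the homing receptor gene Ccr7 at -0.85 (SE 0.47), Klf2 at -0.38 (SE 0.23), Ets1 at -0.31 (SE 0.21) and Bach2, a repressor of Prdm1, at 0.18 (SE 0.14). In wild type replicate 1 with arrays centred, 12 of the 23 lay above the median of the samples, so this list as a whole was not low there.

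Of 10 measured germinal-centre genes 1 was higher and 9 lower in knockout samples (median log2 difference -0.15), and none passed. Over all genes 28.0% were higher (median log2 difference -0.11). Without wild type replicate 1 the germinal-centre split was 5 and 5, where 35.9% of all genes were higher. Efnb1 had a log2 difference of -0.33 (SE 0.22), S1pr2 -0.23 (SE 0.16), Rgs13 -0.20 (SE 0.20) and Gna13 -0.17 (SE 0.19). Of 11 measured precursor and pan-B markers 10 were higher and 1 lower in knockout samples (median log2 difference 0.11), against 28.0% higher among all genes and 44.0% among the brighter 9969. None passed with all arrays, and 0 had an unadjusted limma p under 0.05. Those of smallest p were Dntt at 1.20 (SE 0.61), Rag2 at 0.82 (SE 0.63), Igll1 at -0.12 (SE 0.10) and Rag1 at 0.86 (SE 0.71), each with a limma adjusted p of 0.878. The split was 7 and 4 without wild type replicate 1, and 6 and 5 among D/F samples or with array weights. Among D/F samples alone, 2 of each genotype, Il7r differed by -1.40 (SE 0.27; limma adjusted p = 0.00727). This interleukin-7 receptor gene was called there, as were 0.396% of all genes. The myeloid marker Lyz2 was called among RO samples alone, also 2 of each genotype, at 2.14 (SE 0.27; limma adjusted p = 0.0189). There 32 of 19937 genes were called. The precursor and pan-B markers varied between samples of 1 genotype: Il7r ran from 8.96 to 12.44 in knockout and from 8.92, in wild type replicate 1, to 11.64 in wild-type samples. The recombinase gene Rag2 was at 6.22 in wild type replicate 1 and at 5.69 to 9.49 elsewhere. Of the 11 markers, 0 lay above the median of the samples in wild type replicate 1 with arrays centred, and 5 as deposited. All 11 are among the brighter 9969 genes, and with arrays centred that sample was lowest for 36.5% of those. It was lowest for 3 of the 11 markers, so low values of bright genes there were not confined to them. The part of these marker values in the Xbp1 and Jchain values of that sample was not tested.

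Finally, the genes whose pattern over the 8 samples was most like that of the 3 most variable members were listed, by the root mean square distance between deviations from the mean with arrays centred. For Xbp1 the nearest genes were Lat (0.38), Syndig1l (0.39) and Plxnb2 (0.41), with a median over all genes of 0.74. For Jchain they were Lifr (0.30), Ddn (0.32) and Krt6a (0.33), against a median of 0.66. For Sdc1 they were Naip6 (0.16), Zfp870 (0.20) and Nme3 (0.20), against 0.53. No measured member of the programme was among the nearest genes of another. With 8 samples and 19936 candidates some genes will lie close to any pattern.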

How the data were processed

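The authors deposited log2 signals for 34760 probe sets in 8 samples; the submitters' processing notes name MAS5, with version and settings not stated in the sources used here; because MAS5 relies on mismatch probes that this array does not carry, the summarization is uncertain. Log base and scaling were inferred from the deposited values: the mean of the linear values with 2% trimmed was 500.0 on each array. This scaling leaves array medians different between arrays. Of the probe sets 21640 had 1 gene symbol. The brightest per gene gave 19937 genes.

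Groups came from the genotype label, with replicates numbered in order of deposit. Differences were estimated in R 4.3.3 by limma 3.58.1 (lmFit, eBayes with trend; genotype and naming scheme as terms; 5 residual degrees of freedom) and adjusted by Benjamini-Hochberg over all genes, at a threshold of 0.05; the scripts were tested on simulated data. Exact permutation tests used the 70 assignments of 4 and 4 samples, whose smallest 2-sided p is 0.0286. The number of arrays limits the precision. Members, lists and tests were chosen with earlier results of these data known. By rule the members, up to 4 genes of smallest p per list and the 3 genes nearest in pattern to each of the 3 most variable members were named. The rule's genes of lists for other cell types are given as list totals, and other listed genes were named for their role after their values were seen. Lists were described by counts and medians. Alternatives were no naming scheme, quantile normalization, median centring, brighter genes only, every probe set, probe-set means, array weights, other eBayes priors, the scheme as a random block, RO or D/F samples only, and leaving out single arrays. RefSeq promoters of GRCm38.p6 were searched with exact letters on both strands.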

Additional observations from a re-analysis of the deposited data

Results flagged for a closer look

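Among 254 groups of 4 samples, 2 for each measured member or listed gene, 9 held a sample far from the others of its genotype, by a criterion that chance meets in about 1 of 20 groups. Ighm, the antibody mu constant region, was at 9.97 in knockout replicate 1 against 6.42 to 6.93 in the other knockout samples. Sec24d, a coat protein gene of the secretory pathway, was at 7.43 in knockout replicate 3 against 6.52 to 6.65 in the other knockout samples. Herpud1, another secretory-pathway gene, was at 12.38 in knockout replicate 4 against 11.33 to 11.39, and Sec61b at 9.65 in knockout replicate 1 was the lowest of its group. In wild type replicate 3 Klrb1c was at 10.54 against 5.99 to 6.08 in the other wild-type samples, Spi1 at 11.14 was the highest and Zbtb20 at 7.15 the lowest of its group. In knockout replicate 2 the dim markers Csf1r (6.36) and Ly6g (5.38) were the lowest. None of the 6 measured members had such a sample.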

How the results depend on the processing

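No member was called under any of the 20 alternatives. Of 117 refitted member differences, 109 kept their sign, but many of these could not have turned. Dropping the naming scheme, making it a random block and other eBayes priors left each estimate unchanged, as the design is balanced. So did brighter genes only, every probe set and probe-set means, as each member has 1 probe set. All turns of sign came from the remaining alternatives. The differences of Xbp1 turned to 0.36 with array weights and 0.53 among D/F samples. With 1 array left out they ran from -0.54 to 0.40, positive without knockout replicate 1 (0.018) and wild type replicate 1 (0.40). Irf4 turned to -0.27 in the RO samples alone as deposited (0.058 with arrays centred) and -0.024 without knockout replicate 2 (range -0.024 to 0.39). Bcl6 turned to 0.072 after quantile normalization and 0.077 with arrays centred. With 1 array left out, Sdc1 ran from -0.92 to -0.34, Jchain from -1.12 to -0.35, Prdm1 from -0.41 to -0.20 and Bcl6 from -0.13 to -0.020. After quantile normalization and centring, the interaction of genotype and naming scheme turned to -0.19 and -0.17 for Prdm1 and -0.36 and -0.34 for Bcl6. The count of genes called, 1 with all arrays, was 0 among brighter genes, 2 with array weights, 32 among RO samples, 79 among D/F samples, and 0 to 2 with 1 array left out. As deposited, 1, 2 and 1 of the 5 plasma-cell genes lay above the median in knockout replicates 1 and 4 and wild type replicate 4, against 2, 1 and 4 with arrays centred. With arrays centred, 10 of 13 plasma-cell identity genes, 22 of 26 XBP1 targets, 12 of 23 B-cell identity genes and 5 of 10 germinal-centre genes were higher in knockout samples, as were 60.3% of all genes. Germinal-centre genes gave 5 after quantile normalization, 6 in the D/F samples alone and 1 to 5 with 1 array left out, and B-cell identity genes 13 in the D/F samples alone. The cause was not tested. No paired analysis was possible because the labels carry no replicate numbers. Dim signals limit Prdm1, Bcl6 and Jchain, which fell below the level of the brighter genes and have no value there.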
